A study of Mus musculus with 13 samples.

Results

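Lysosomes are the acidic compartments in which macrophages break down what they engulf. The genes described here are 39 that build and run them, out of 43430 in the count table: 11 proteases, 12 subunits of the vacuolar proton pump (5 of its membrane sector V0 and 7 of its cytosolic sector V1), 6 membrane and lipid export proteins, 9 hydrolases and cofactors, and Tfeb, a transcription factor. They were chosen by name, as a list of known lysosomal genes, and each symbol was matched to 1 gene ID. The choice was made with earlier results of these data known, so shares of members set beside all genes are not an independent test. All 39 passed the filter on low counts, which 11906 genes passed.

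The cells were alveolar macrophages, which live in the airspaces and clear inhaled matter, and were sorted by flow cytometry. The mice were male C57Bl/6 animals, 10 weeks old. Mice drank water with metformin, a biguanide drug for type 2 diabetes, at a dose of 100 mg/kg/day, starting 24 h ahead of the instillation, or vehicle. They then received 10 µg of a standard particulate matter (PM) into the trachea, or saline (PBS). Cells were taken 24 h later. Animals on vehicle gave 4 libraries after PBS and 3 after PM, and animals on metformin gave 3 after PBS and 3 after PM. No group carried a genetic change by the labels. The labels number the libraries within each group but do not state that each is a separate animal, so p-values measure the spread between these libraries.

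Each library held between 5567481 and 8100538 counts in genes. Pearson's r between replicates over all tested genes lay between 0.9873 and 0.9924 (log2 CPM), and genes are not independent replicates. All 15 alveolar macrophage marker genes were measured, with a summed level of 26900 to 32900 CPM (counts scaled to a common library total) in every library. The largest share of that sum was Chil3, at group means of 14700 to 17300 CPM, and the other 14 genes summed to 13500 to 14400 CPM. Of 10 neutrophil genes, Ly6g, Retnlg and Camp were at 0 counts throughout, while Csf3r, Mmp8 and Cxcr2 were measured, and the list summed to 58.5 to 82.7 CPM. Lymphocyte genes summed to at most 9.56 CPM and eosinophil genes to at most 0.179 CPM. Within groups the members' coefficient of variation had a median of 3.19% to 5.3%. Vehicle PM 2 stood above both other libraries of its group for 29 of 39 members, with a median log2 ratio of 0.11. Metformin PBS 1 was likewise highest in its group for 28 members (0.071) and metformin PM 4 for 26 (0.062). Metformin PBS 3 was lowest for 26 (−0.051) and vehicle PM 1 for 25 (−0.091). The ratio was largest for vehicle PM 2, so the counts of called genes for PM with vehicle are also given without that library.

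As background, the proton pump lets V1 split ATP to drive protons through V0, and the low pH that follows lets cathepsins mature and work. TFEB binds short palindromic DNA motifs near many lysosomal genes and raises their transcription when it enters the nucleus. Its entry is governed by phosphorylation, through mTORC1 and the Rag and folliculin proteins at the lysosomal surface. RNA counts measure neither this entry nor lysosomal pH or protease activity.

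RefSeq promoter windows on GRCm38.p6, from 250 bases before to 50 bases after a gene's start, were found for 31 of 39 members. The core palindrome CACGTG (the same on both strands) occurred in the windows of 13 of these 31 genes (41.9%), against 8.09% of 27025 genes with a window and 12.1% of the 9024 that were also tested here. The longer TCACGTGA, which contains the core, occurred in 6 of 31 (19.4%), against 1.12% and 2.23%. These 6 were Ctsa, Ctsd, Atp6v0d1, Atp6v0e, Atp6v1a and Mcoln1. Of them only Atp6v1a was called in any comparison below. With a further G before and a C after it, TCACGTGA was in 0 of 31 member genes and in 0.37% of all genes. The AP-1 type motif TGANTCA, searched on both strands, was in 3 of 31 (9.68%), against 8.97% of all genes and 5.88% of the tested ones. These 4 windows are shown because the results turn on these genes: Lamp1 (chr8:13158911-13159210, plus strand) with its 4 cores, Atp6v1a (chr16:44139210-44139509, minus strand) with TCACGTGA, and Ctsk (chr3:95498960-95499259, plus strand) and Tfeb (chr17:47736787-47737086, plus strand, the most upstream of 3 RefSeq starts) with no CACGTG. Each runs 5′ to 3′, and capitals mark CACGTG or TCACGTGA.
Lamp1: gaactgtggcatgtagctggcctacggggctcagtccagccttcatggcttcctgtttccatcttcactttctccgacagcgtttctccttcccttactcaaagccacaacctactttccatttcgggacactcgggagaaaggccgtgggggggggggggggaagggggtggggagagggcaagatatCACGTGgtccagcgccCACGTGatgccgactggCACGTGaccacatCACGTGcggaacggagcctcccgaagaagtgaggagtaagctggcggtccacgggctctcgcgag
Atp6v1a: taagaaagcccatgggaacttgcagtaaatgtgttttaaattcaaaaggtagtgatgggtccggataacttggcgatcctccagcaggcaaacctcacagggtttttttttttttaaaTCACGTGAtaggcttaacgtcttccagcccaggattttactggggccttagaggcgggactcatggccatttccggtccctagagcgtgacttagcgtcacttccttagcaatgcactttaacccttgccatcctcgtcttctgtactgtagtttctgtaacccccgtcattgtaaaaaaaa
Ctsk: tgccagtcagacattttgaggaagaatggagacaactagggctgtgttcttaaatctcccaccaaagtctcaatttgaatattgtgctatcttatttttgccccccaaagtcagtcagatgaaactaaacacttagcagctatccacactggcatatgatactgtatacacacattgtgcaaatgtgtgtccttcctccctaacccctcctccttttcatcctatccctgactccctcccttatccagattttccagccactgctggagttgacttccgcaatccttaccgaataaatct
Tfeb: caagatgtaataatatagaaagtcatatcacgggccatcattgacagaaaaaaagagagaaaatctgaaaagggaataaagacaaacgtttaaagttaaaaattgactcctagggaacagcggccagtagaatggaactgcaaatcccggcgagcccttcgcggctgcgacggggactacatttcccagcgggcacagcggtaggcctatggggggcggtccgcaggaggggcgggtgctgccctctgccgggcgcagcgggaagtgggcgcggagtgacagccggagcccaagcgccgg
In Lamp1 the cores began at bases −61, −45, −28 and −15 from the start. In Atp6v1a the longer motif began at base −132. Lamp1 was called only for PM with metformin. Of the other members called higher with PM, Ctsl had 1 core in its window, and Ctsz and Atp6v0c had 0. Ctsb and Atp6v0d2 had no window. The counts do not show which of the 3 Tfeb starts was used. A match is a stretch of letters and not a measured binding site, and no match says only that these letters are not in this window.

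By level per transcript length with vehicle and PBS, the members ranged from rank 6 (Ctsd) to rank 4197 (Ctsf) of the 11833 tested genes with a transcript length. The shares over all genes given below were not matched to the members by level. Small changes are more readily called in abundant genes. Together they took 3.618 ± 0.0533% of all counts with vehicle and PBS (SD, n = 4), 3.548 ± 0.0931% with metformin and PBS (n = 3), 3.758 ± 0.228% with vehicle and PM (n = 3) and 3.711 ± 0.134% with metformin and PM (n = 3). The ranges of all 4 groups overlapped, at 3.549% to 3.678%, 3.446% to 3.628%, 3.586% to 4.016% and 3.611% to 3.863%. The 12 proton pump genes took 0.4123 ± 0.00755% with vehicle and PBS and 0.446 ± 0.0138% with vehicle and PM, and 0.4034 ± 0.01% and 0.4425 ± 0.0106% in the matching metformin groups.

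Levels can be compared between genes only per transcript length, here as RPKM, which scales counts by library total and transcript length. In vehicle with PBS the aspartic protease Ctsd had the highest level, 3922 ± 117 RPKM (SD, n = 4). The cysteine protease Ctss followed at 2453 ± 50.7 RPKM and Psap, the precursor of the saposins that help hydrolases act on sphingolipids, at 2426 ± 15.6 RPKM. These last levels did not differ beyond their spread. After a gap came Ctsz at 559.5 ± 23.4 RPKM, Lamp1 at 534.9 ± 15.2 RPKM and Grn at 510.8 ± 24.1 RPKM. Of the paired V0 subunits d, Atp6v0d2 lay at 481.1 ± 21.4 RPKM and the widely expressed Atp6v0d1 at 156 ± 2.37 RPKM. Tfeb was 36th of the 39 by level, at 35.4 ± 1.15 RPKM, and Ctsf was the lowest at 16.76 ± 0.937 RPKM.

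**Figure D1:**
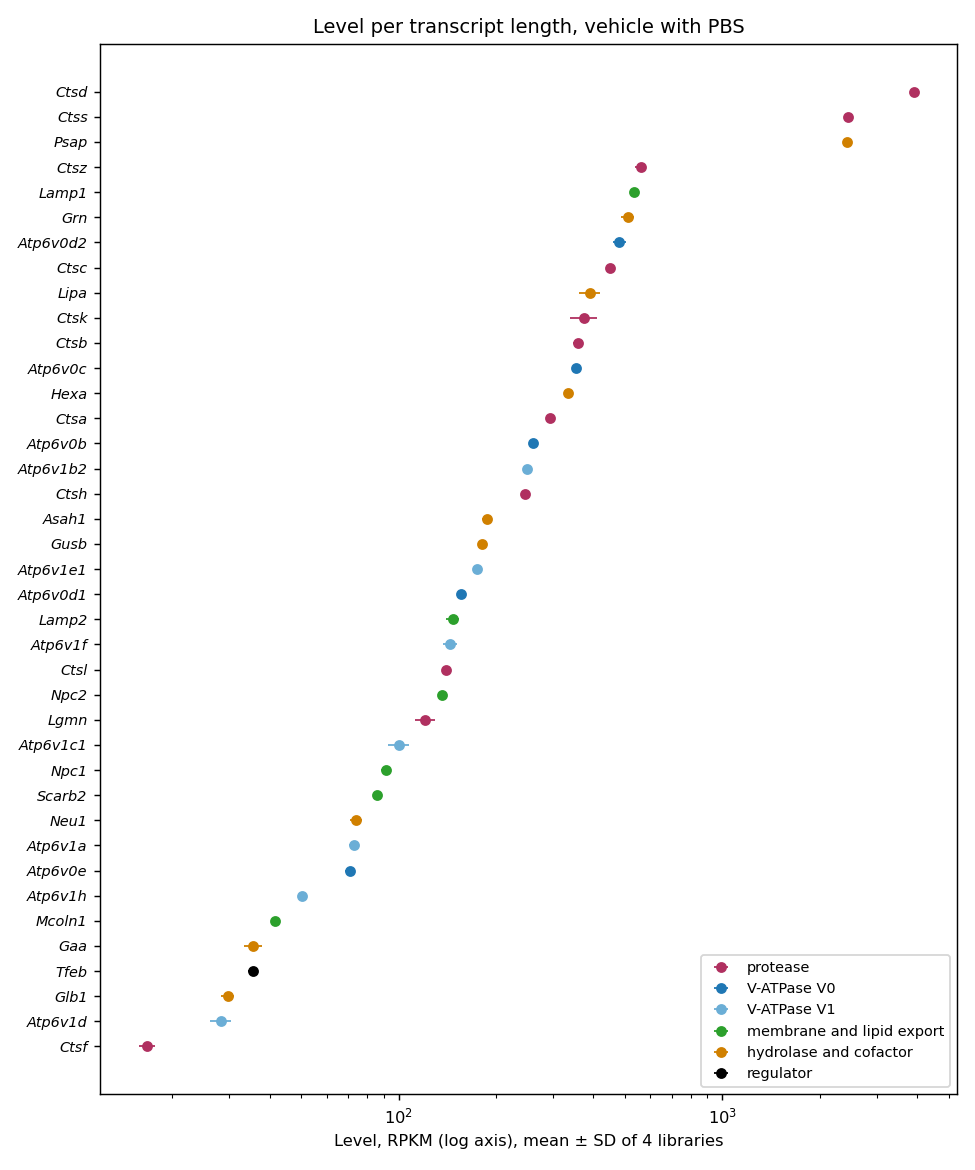
Level of each of the 39 lysosomal genes in vehicle with PBS, on a log axis in RPKM by GENCODE transcript length. Points are means and bars SDs of 4 libraries, coloured by role. Ctsd, Ctss and Psap stand apart at the top, from 2426 to 3922 RPKM, and Ctsf is lowest at 16.76 RPKM.

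The first question is what followed PM in animals on vehicle. A set of proteases and proton pump genes rose, and no member was called lower. Called higher were 7 of 39 members (17.9%), against 2.6% of all tested genes (edgeR's quasi-likelihood model, p adjusted after Benjamini and Hochberg, threshold 0.05). Called lower were 0 of 39, against 2.26% of all genes. At an unadjusted p under 0.05 the test gave 12 higher and 3 lower (15 of 39, against 1983 of all 11906 genes). DESeq2 called 8 higher and 0 lower. By role the 7 were 4 of 11 proteases, 2 of 5 V0 and 1 of 7 V1 genes, with 0 of 6 membrane genes and 0 of 9 hydrolases and cofactors by either tool. Among those last groups 1 membrane gene was higher and 2 hydrolases lower at an unadjusted p under 0.05. The members' median log2 fold change was 0.05, beside −0.001 for all genes, and 25 of 39 lay above 0, against 49.6% of all genes. Libraries of the groups did not overlap for 12 members that were higher (30.8%, against 7.33% of all genes) and 4 that were lower (10.3%, against 7.6%).

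Ctsk, a cysteine protease best known for breaking down collagen and elastin, rose most. It measured 628.3, 561, 579.2 and 498.4 CPM with vehicle and PBS and 866.3, 1098 and 900 CPM with vehicle and PM. Every PM library lay above every PBS library. The log2 fold change was 0.75 ± 0.08 (SE; 1.684-fold; adjusted p = 6.72e-06).

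The other proteases that rose did so by less. Ctsz, a carboxypeptidase, measured 851.6, 803.6, 770.2 and 799.3 CPM with PBS and 912.4, 1072 and 951.9 CPM with PM (log2 0.28 ± 0.058, adjusted p = 0.00571). Ctsl, an endopeptidase, measured 273.5, 269.6, 285.4 and 276.2 CPM with PBS and 313.9, 346.8 and 322.7 CPM with PM (log2 0.25 ± 0.054, adjusted p = 0.00849). Ctsb, which cuts both within chains and at their ends, measured 1752, 1729, 1612 and 1708 CPM with PBS and 1867, 2116 and 1891 CPM with PM (log2 0.20 ± 0.052, adjusted p = 0.0241). None of these 3 had libraries that overlapped between PBS and PM. Ctsc, the dipeptidase that activates granule serine proteases, missed the threshold (log2 0.16 ± 0.048, adjusted p = 0.0521).

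The most abundant proteases were not called. Ctsd measured 8568, 8164, 8092 and 8542 CPM with PBS and 7661, 9293 and 8069 CPM with PM, so the PM libraries spanned the PBS range (log2 0.00 ± 0.06). Ctss, an endopeptidase that trims the MHC class II invariant chain, measured 3289, 3245, 3366 and 3395 CPM with PBS and 3139, 3423 and 3354 CPM with PM (log2 −0.01 ± 0.047). The groups overlapped for Ctss as well. Ctss and Ctsk lie 17.4 kb apart on chromosome 3 with 0 genes between them.

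In the proton pump, 3 of 12 genes rose. Atp6v0c, the subunit of the proton-carrying ring, measured 425.7, 418.6, 405.1 and 427.2 CPM with PBS and 470.1, 530.5 and 485.1 CPM with PM (log2 0.24 ± 0.055, adjusted p = 0.0125). Atp6v0d2, the d subunit found in macrophages and osteoclasts, measured 1208, 1259, 1269 and 1150 CPM with PBS and 1411, 1440 and 1350 CPM with PM (log2 0.20 ± 0.048, adjusted p = 0.0173). Atp6v1a, the ATP-splitting subunit, measured 314.6, 310.4, 292.7 and 311.7 CPM with PBS and 333.2, 389.8 and 350 CPM with PM (log2 0.22 ± 0.056, adjusted p = 0.0242). In all 3 the lowest PM library lay above the highest PBS library. The other 9 pump genes ranged from log2 −0.02 (Atp6v0e) to 0.16 (Atp6v1c1), and of the 12, 10 lay above 0. Atp6v1h, a regulatory V1 subunit, measured 105.4, 103.1, 100.9 and 103.1 CPM with PBS and 112.6, 105.3 and 116.6 CPM with PM (log2 0.11 ± 0.068, adjusted p = 0.452).

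Among the members, no lysosomal membrane gene, hydrolase or cofactor was called. In the further lists described below, 3 of 29 tested hydrolase genes were higher and 2 lower (17.2%, against 4.85% of all genes). Of 25 further membrane genes tested, 3 were higher and 2 lower (20%). Lamp1, a heavily glycosylated membrane protein, measured 1209, 1228, 1150 and 1181 CPM with PBS and 1268, 1386 and 1262 CPM with PM. Its groups did not overlap, but the difference missed the threshold (log2 0.13 ± 0.047, adjusted p = 0.138). Lamp2, which also serves chaperone-mediated autophagy, measured 532.3, 555.7, 499 and 530.9 CPM with PBS and 509.2, 563.8 and 531.1 CPM with PM. Npc1, which exports cholesterol, measured 465, 502.9, 477.8 and 469.5 CPM with PBS and 477.2, 506.6 and 479.4 CPM with PM. Both genes overlapped between the groups. Psap measured 6481, 6481, 6397 and 6429 CPM with PBS and 6498, 7595 and 6323 CPM with PM, where only vehicle PM 2 stood clear of the rest. Grn, the precursor of granulins, measured 1253, 1210, 1200 and 1118 CPM with PBS and 1151, 1238 and 1153 CPM with PM, again overlapping. The hydrolases and cofactors spanned log2 −0.17 (Glb1, a galactosidase) to 0.09 (Gaa, the glucosidase of glycogen breakdown).

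The library that stood high decided most of these calls. Without vehicle PM 2, 1 of the 7 members was still called (Ctsk, log2 0.635), and the members' median log2 fold change was 0.004. The log2 fold changes of the other 6 kept their sign without it, at 0.205 for Ctsz, 0.20 for Ctsl, 0.14 for Ctsb, 0.184 for Atp6v0c, 0.172 for Atp6v0d2 and 0.148 for Atp6v1a. Without vehicle PBS 2, 3 or 4, 5 members were called each time. Over all genes the number called higher fell from 309 to 209 without vehicle PM 2. It was 242, 307 and 261 without vehicle PBS 2, 3 and 4. Standard errors of the members lay between 0.043 and 0.107, so changes of the size seen for Ctsc or Atp6v1c1 were at the limit of what this design detects. Genes typical of monocytes and monocyte-derived macrophages moved with PM too: 5 of 9 tested were called higher (55.6%, against 2.6% of all genes) and 0 lower. The list's summed level was 1990 to 2380 CPM with vehicle and PBS and 2810 to 3780 CPM with vehicle and PM. Fn1, at a mean of 1500 CPM with PBS and 2430 CPM with PM, and Cd14, at 591 and 708 CPM, carried most of that sum, and the other 13 genes summed to 72.7 to 90.5 CPM and 105 to 123 CPM. Among those 13, Mmp14 stood at a mean of 0.439 CPM with PBS and 12.3 CPM with PM, Mmp12 at 7.84 and 24.3 CPM, and Itgam at 4.51 and 11.6 CPM. Ccr2 stood at 8.26 CPM with PBS and 7.22 CPM with PM and was not called, Cx3cr1 stood at 0.619 and 0.262 CPM, and Ly6c2 never exceeded 2 counts. By log2 fold change 6 of the 9 tested genes lay above 0 and 3 below. Genes of alveolar macrophages themselves moved as well, with 3 higher and 4 lower of 15 (46.7%, against 4.85% of all genes), such as Car4, a carbonic anhydrase, at 433 and 936 CPM and Ear1, a ribonuclease, at 458 and 310 CPM. Both tested lymphocyte genes, Igkc and Jchain, were higher, and of 8 tested epithelial genes 0 were called. The part of these cells or states in the members' changes was not tested, and in such bulk RNA a change in cell mix and a change in RNA per cell cannot be told apart.

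**Figure D2:**
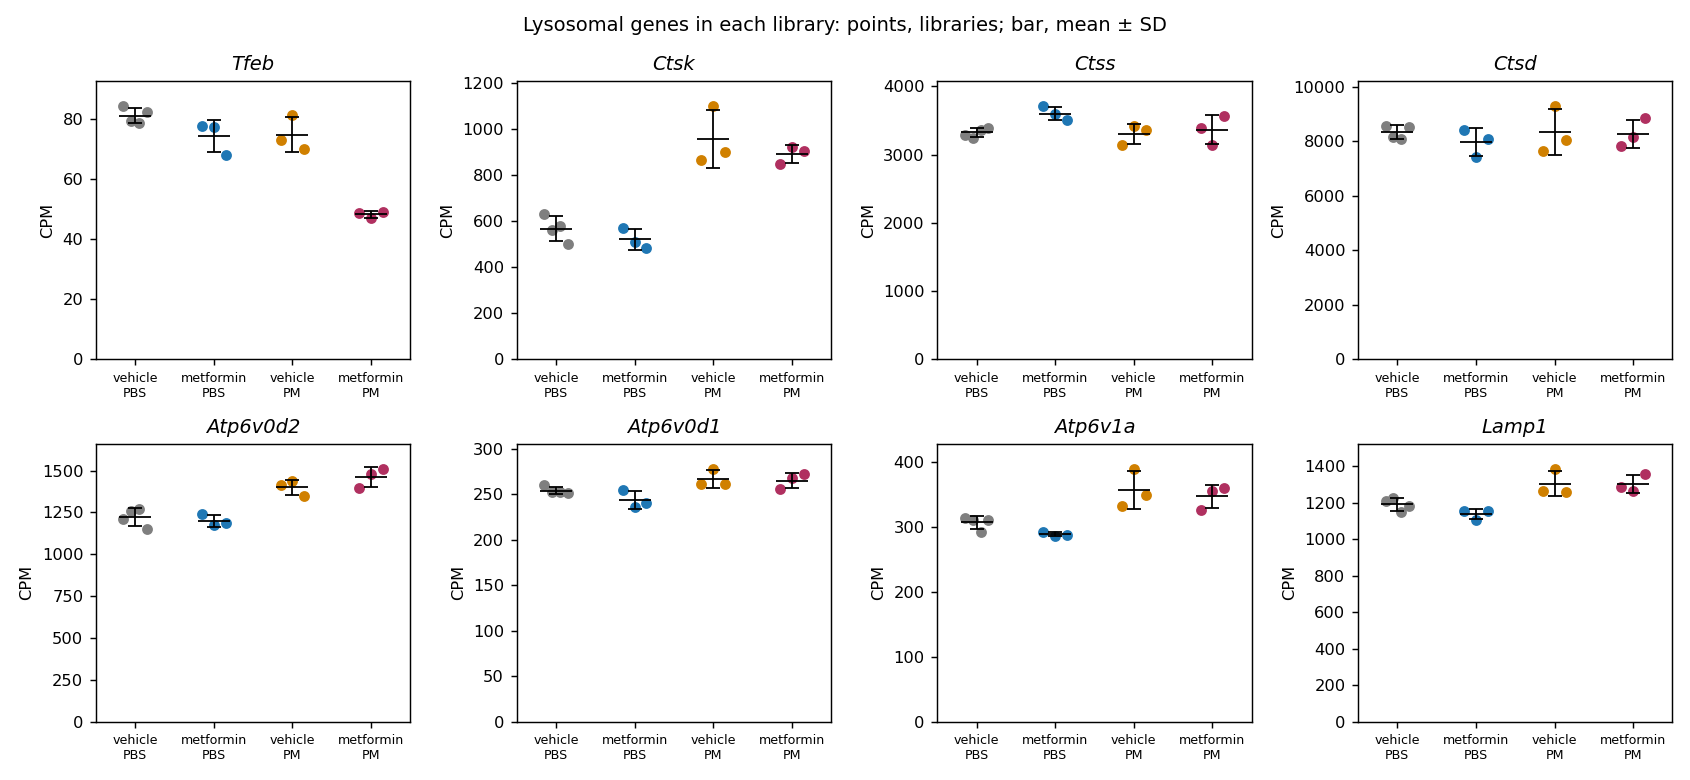
CPM of 8 lysosomal genes in every library of the 4 groups, with bars for the mean ± SD. Ctsk, Atp6v0d2 and Atp6v1a are higher in both PM groups, Ctss and Ctsd overlap between PBS and PM in each arm, and Tfeb is low only in metformin with PM, at 47 to 49.18 CPM.

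The second question is what followed PM in animals on metformin. The same proteases and pump genes rose, Lamp1 joined them, and Tfeb fell. Called higher were 8 of 39 members (20.5%), against 7.18% of all genes, and called lower 1 (2.56%), against 5.6%. The 7 members called higher with vehicle were all among these 8, and the arms share no library. The median log2 fold change was 0.06, beside 0.005 for all genes, and 28 of 39 lay above 0, against 50.9%. Libraries did not overlap for 16 members that were higher (41%, against 16.1% of all genes) and 3 that were lower (7.69%, against 13.9%).

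Ctsk measured 569.8, 509.9 and 482.1 CPM with metformin and PBS and 846.6, 923 and 904.9 CPM with metformin and PM. The groups lay far apart, and the log2 fold change of 0.78 ± 0.087 (1.713-fold, adjusted p = 6.54e-06) was close to that with vehicle. Atp6v0d2 measured 1240, 1176 and 1185 CPM with PBS and 1393, 1480 and 1509 CPM with PM (log2 0.28 ± 0.051, adjusted p = 0.000979). Atp6v1a measured 292.9, 286.4 and 288 CPM with PBS and 326.8, 355.9 and 360 CPM with PM (log2 0.27 ± 0.06, adjusted p = 0.00561). No library overlapped between the groups in these 3 genes.

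Ctsb measured 1710, 1572 and 1616 CPM with PBS and 1853, 1924 and 2015 CPM with PM (log2 0.24 ± 0.056, adjusted p = 0.00663). Ctsz measured 829.9, 732.9 and 813.8 CPM with PBS and 923.5, 960.6 and 974.7 CPM with PM (log2 0.27 ± 0.062, adjusted p = 0.00732). Lamp1 measured 1154, 1107 and 1156 CPM with PBS and 1286, 1266 and 1361 CPM with PM (log2 0.20 ± 0.05, adjusted p = 0.0142). All PM libraries of these genes stood above all PBS libraries. Although Lamp1 passed the threshold with metformin and not with vehicle, the difference between its PM effects was 0.07 ± 0.069 (adjusted p = 0.796).

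Ctsl and Atp6v0c were nearest the threshold. Ctsl measured 278.1, 257.9 and 272.2 CPM with PBS and 286.7, 306.5 and 327.3 CPM with PM (log2 0.19 ± 0.058, adjusted p = 0.0387), and this call ended in 7 of 11 alternatives, the replicate block among them (log2 0.186). Atp6v0c measured 456.9, 388.6 and 421.6 CPM with PBS and 478.1, 487.5 and 480.6 CPM with PM (log2 0.19 ± 0.059, adjusted p = 0.0393), a call that ended in 6 of 11. Both kept apart by library. Ctsd again overlapped, at 8404, 7419 and 8097 CPM with PBS and 7839, 8170 and 8856 CPM with PM, and so did Ctss, at 3707, 3591 and 3504 CPM with PBS and 3383, 3141 and 3562 CPM with PM.

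Among the rest, the values again overlapped or missed the threshold. Lamp2 measured 511.6, 500.6 and 520.4 CPM with PBS and 514.9, 532.7 and 550.4 CPM with PM (log2 0.06 ± 0.053). Psap measured 6675, 6026 and 6428 CPM with PBS and 6519, 6527 and 7208 CPM with PM. Grn measured 1170, 1069 and 1075 CPM with PBS and 1117, 1097 and 1167 CPM with PM. All 3 overlapped between the groups. Npc1 measured 488.3, 483.1 and 488.7 CPM with PBS and 506.4, 502.1 and 491.6 CPM with PM, which did not overlap but differed by only log2 0.04 ± 0.048. Atp6v1h measured 99.69, 94.45 and 109.2 CPM with PBS and 105.4, 119.7 and 98.51 CPM with PM, with overlap. Mcoln1, the lysosomal calcium channel TRPML1, was at log2 0.17 ± 0.058 (adjusted p = 0.0587). Of the hydrolases and cofactors 0 of 9 were called by edgeR or DESeq2 in either direction. At an unadjusted p under 0.05 there were 0 of 9, against 3101 of 11906 genes.

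Leaving out 1 library moved this count from 8 to between 4 (without metformin PBS 3) and 10 (without metformin PBS 1), and to 5 without metformin PM 4. Over all genes the number called higher was 855, and 492, 842 and 619 without these libraries in turn. Ctsb, Ctsk, Atp6v0d2 and Atp6v1a were called in each of the 11 alternatives tried for this comparison, Ctsz in 10 and Lamp1 in 9. The summed level of monocyte-derived macrophage genes was 2470 to 3030 CPM with metformin and PBS and 2870 to 3280 CPM with metformin and PM. Of 9 tested, 4 were higher (44.4%, against 7.18% of all genes) and 1 (Apoe) lower (11.1%, against 5.6%). Of 15 alveolar macrophage genes 6 were higher and 3 lower (60%, against 12.8% of all genes). Of 8 tested epithelial genes 3 were higher and 1 lower (50%, against 12.8% of all genes). Sftpc, a surfactant protein, stood at a mean of 19.6 CPM with PBS and 46.6 CPM with PM. Likewise Sftpb stood at 4.62 and 11.3 CPM and Sftpa1 at 4.31 and 12.5 CPM. The list's sum overlapped, at 162 to 223 CPM and 176 to 225 CPM. Epcam held the largest share of that sum and went the other way, at 140 and 104 CPM. By log2 fold change 7 of the 8 lay above 0 and 1 below. Both tested lymphocyte genes were higher, Igkc at 0.373 and 2.89 CPM and Jchain at 0.106 and 1.76 CPM, as was 1 of 4 tested neutrophil genes (Mmp8), and the dendritic cell gene Batf3 was lower at 4.13 and 2.24 CPM. The part of these lists in the members' changes was not tested.

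**Figure D3:**
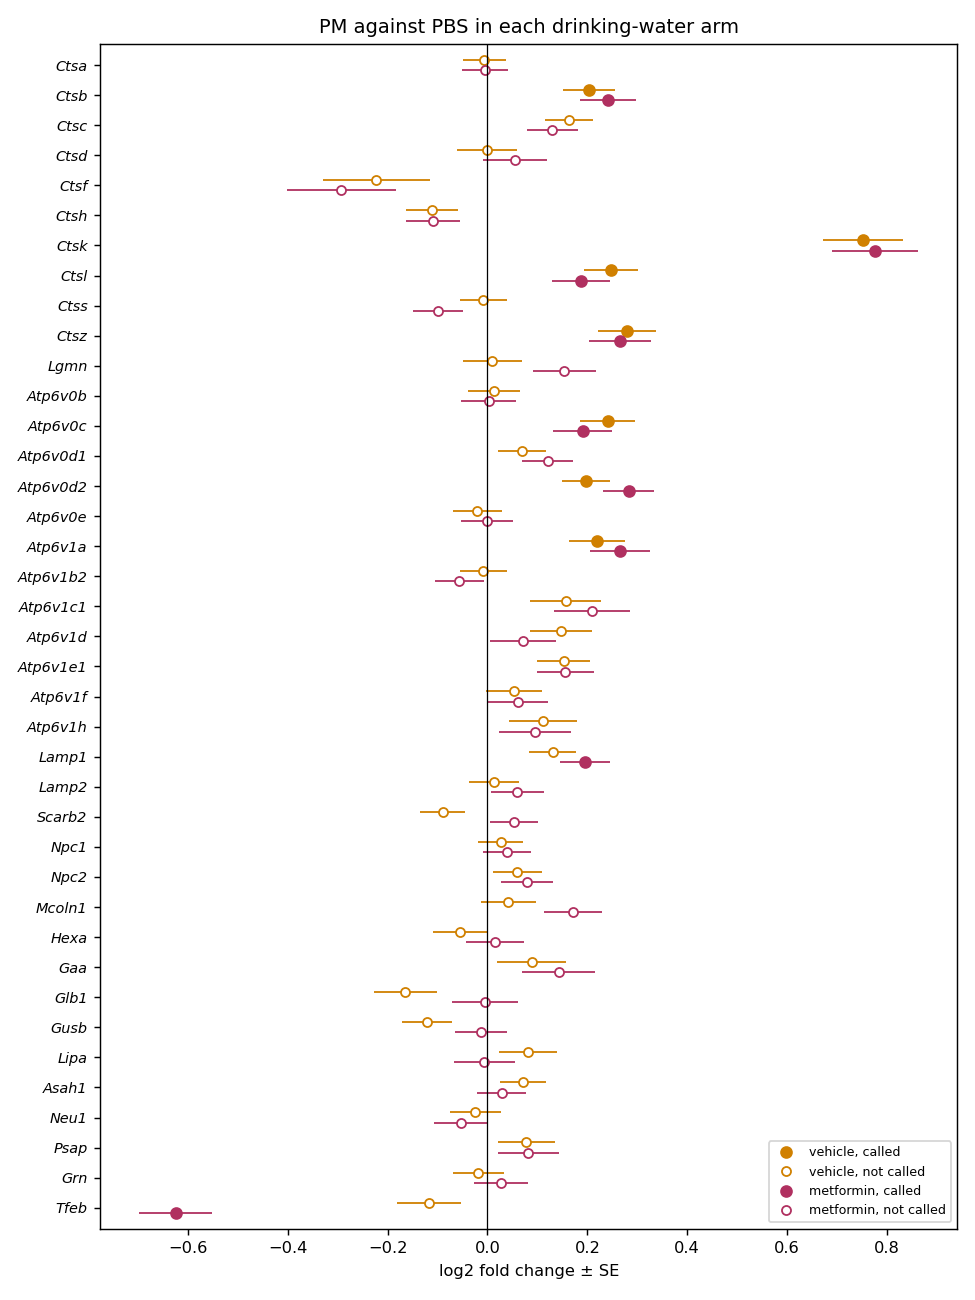
Log2 fold change of PM against PBS for each of the 39 members, with vehicle and with metformin; bars are SEs and filled points have an adjusted p under 0.05. Ctsk lies farthest right in both arms (0.75 and 0.78), and Tfeb lies at −0.62 with metformin only.

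The third question is what metformin did in PBS animals. One member was called, Lgmn, an asparagine-specific protease that processes other lysosomal proteases. Called lower was 1 of 39 members (2.56%), against 1.93% of all genes, and called higher 0, against 1.13%. At an unadjusted p under 0.05 the counts were 4 lower and 2 higher (6 of 39, against 2125 of all 11906 genes). DESeq2 also gave 1 lower and 0 higher. Lgmn measured 262.4, 246.1, 221.8 and 233.3 CPM with vehicle and 208.7, 203.1 and 198.5 CPM with metformin. All metformin libraries lay below all vehicle libraries (log2 −0.24 ± 0.059, adjusted p = 0.0276). Leaving out vehicle library 1 or 2, or metformin library 3 or 4, ended the call of Lgmn, as did a fit of only the groups compared and the replicate block (log2 −0.223), with log2 values from −0.28 to −0.20 over all alternatives. In PM animals Lgmn measured 228.4, 256.4 and 243.1 CPM with vehicle and 219, 232.6 and 227.4 CPM with metformin, which overlapped (log2 −0.10 ± 0.062, adjusted p = 0.398).

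The members' median log2 fold change was −0.04 for metformin with PBS, beside −0.004 for all genes, and 11 of 39 lay above 0, against 49%. Libraries did not overlap for 2 members that were higher (5.13%, against 6.2% of all genes) and 4 that were lower (10.3%, against 7.54%). Ctsk was at log2 −0.12 ± 0.082 (adjusted p = 0.467) and Ctss at 0.12 ± 0.047 (adjusted p = 0.2). Of the 12 proton pump genes 0 were called in either direction by edgeR or DESeq2, 0 had an unadjusted p under 0.05, and they spanned −0.13 (Atp6v1c1) to 0.03 (Atp6v0b). Monocyte-derived macrophage genes summed to 1990 to 2380 CPM with vehicle and 2470 to 3030 CPM with metformin. Of 9 tested, 1 was higher (11.1%, against 1.13% of all genes), and Apoe stood at means of 50.7 and 107 CPM. Of 15 alveolar macrophage genes 1 was higher and 1 lower (13.3%, against 3.07%), and Marco stood at 372 and 172 CPM. Of 4 tested neutrophil genes 1 was lower (25%, against 1.93%). Their part in the Lgmn values was not tested.

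The fourth question is what metformin did in PM animals. Tfeb fell by 35.5%, and no other member was called. Called lower was 1 of 39 members (2.56%), against 2.81% of all genes, and called higher 0, against 4.08%. At an unadjusted p under 0.05 the counts were 2 lower and 2 higher (4 of 39, against 2417 of all 11906 genes). DESeq2 also gave 1 lower and 0 higher. The members' median was −0.01, beside −0.004 for all genes, and 15 of 39 lay above 0, against 48.9%. Libraries did not overlap for 2 members that were higher (5.13%, against 13.4% of all genes) and 3 that were lower (7.69%, against 13.1%). All 12 pump genes lay between log2 −0.10 (Atp6v1b2) and 0.06 (Atp6v0d2).

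Tfeb (ENSMUSG00000023990, chromosome 17, 47737030 to 47792419, plus strand) measured 84.36, 79.43, 78.76 and 82.54 CPM with vehicle and PBS and 77.76, 77.41 and 68.23 CPM with metformin and PBS. It measured 73.17, 81.48 and 70.07 CPM with vehicle and PM and 48.78, 47 and 49.18 CPM with metformin and PM. The last 3 libraries stood below the other 10, with no overlap with any group. Their raw counts were 393, 369 and 316, against 431 to 533 elsewhere, although 2 of the 3 libraries were the deepest of the series. None of Tfeb's exons overlapped another counted gene and 0% of its 75-base windows were shared with another gene.

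For Tfeb the log2 fold change of metformin against vehicle was −0.63 ± 0.072 after PM (adjusted p = 3.2e-05) and −0.13 ± 0.066 after PBS (adjusted p = 0.328). PM against PBS gave −0.62 ± 0.073 with metformin (adjusted p = 1.1e-05) and −0.12 ± 0.065 with vehicle (adjusted p = 0.401). These comparisons share groups and are not independent of each other. Between vehicle and metformin, Tfeb's PM effect differed by −0.51 ± 0.098 (adjusted p = 0.00935). That difference was called for 1 of 39 members with a lower PM effect under metformin (2.56%, against 0.546% of all genes) and 0 with a higher one (against 0.89%). At an unadjusted p under 0.05 the counts were 1 and 1 (2 of 39, against 1380 of all 11906 genes). DESeq2 also gave 1 and 0. The members' median difference was 0.01, beside 0.006 for all genes, and 25 of 39 lay above 0, against 51.4%. The 3 Tfeb calls held in every alternative tried, the difference between −0.57 and −0.45 over 17 and the metformin effect after PM between −0.69 and −0.57 over 11. Without vehicle PM 2 these were −0.447 and −0.571. Beside this, 2 of 15 alveolar macrophage genes were higher and 1 lower with metformin after PM (20%, against 6.89% of all genes). Of 8 tested epithelial genes Ager was called higher (12.5%, against 6.89% of all genes). At an unadjusted p under 0.05, 5 of the 8 were higher and 0 lower, against 2417 of 11906 genes in either direction. The list's median log2 fold change was 0.687. Sftpc stood at a mean of 29.1 CPM with vehicle and PM and 46.6 CPM with metformin and PM. The list's sum was 138 to 182 CPM and 176 to 225 CPM in these groups. Of 2 tested dendritic cell genes Batf3 was called lower. Their part in the Tfeb values was not tested.

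The genes that rose with PM did so in both arms while Tfeb was low in 1 of them. The difference of PM effects was 0.02 ± 0.118 for Ctsk, 0.09 ± 0.07 for Atp6v0d2, 0.05 ± 0.082 for Atp6v1a, 0.04 ± 0.076 for Ctsb, −0.01 ± 0.085 for Ctsz, −0.05 ± 0.081 for Atp6v0c and −0.06 ± 0.079 for Ctsl, with adjusted p from 0.698 to 0.978. With SEs of this size, differences in PM effect smaller than those of Tfeb could have been missed. Whether these rises depend on Tfeb was not tested, and its RNA does not measure the protein's activity.

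**Figure D4:**
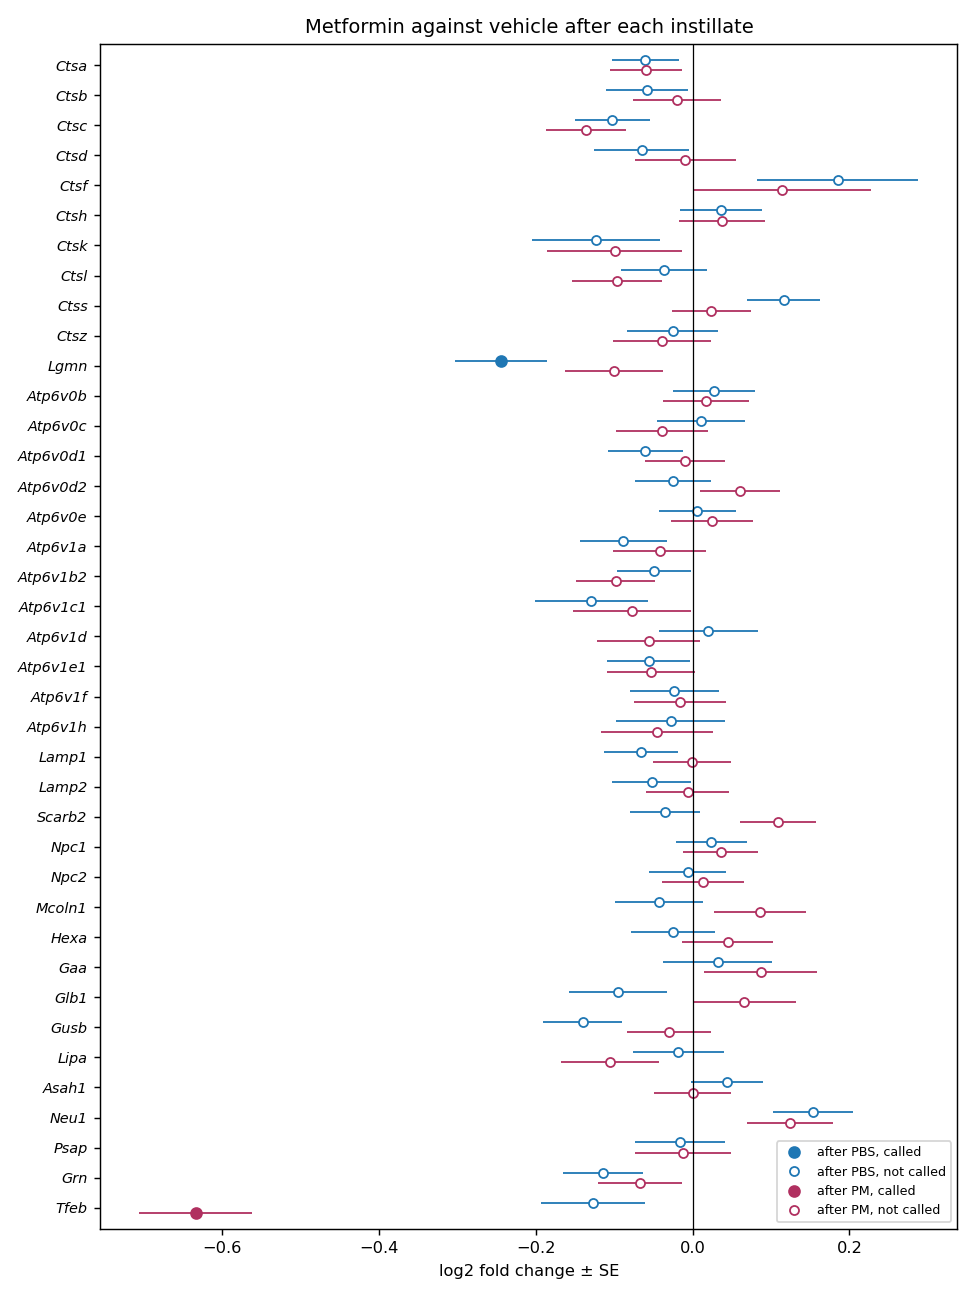
Log2 fold change of metformin against vehicle for each of the 39 members, after PBS and after PM; bars are SEs and filled points have an adjusted p under 0.05. Tfeb after PM lies at −0.63, apart from all other members, and Lgmn after PBS is the other filled point at −0.24.

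Other lysosome and autophagy genes were taken from lists of the pathway's further parts, 154 genes of which 139 were tested. With vehicle, PM was followed by 12 higher and 4 lower (11.5% called, against 4.85% of all genes). Without vehicle PM 2, an alternative added after seeing the data, these were 6 higher and 4 lower. All genes went from 309 higher and 269 lower to 209 and 150. With metformin, PM was followed by 16 higher and 4 lower (14.4%, against 12.8%). Beside the cathepsins, Cstb, the cytosolic inhibitor of cysteine cathepsins, measured 145.1 to 172 CPM with vehicle and PBS and 204.7 to 227.2 CPM with vehicle and PM (log2 0.41 ± 0.06, adjusted p = 0.000219), and rose by log2 0.48 ± 0.065 with metformin (adjusted p = 5.56e-05). Acp5, the tartrate-resistant acid phosphatase of osteoclasts and macrophages, rose by 0.43 ± 0.106 with vehicle (adjusted p = 0.0188) and 0.45 ± 0.113 with metformin (adjusted p = 0.0117). Without vehicle PM 2 the rise of Cstb was still called (log2 0.363) and that of Acp5 with vehicle was not (0.229). Slc11a1, a metal transporter of phagosomes, stood at 1.899 to 4.073 CPM with vehicle and PBS and 10.74 to 19.13 CPM with vehicle and PM (log2 2.22 ± 0.238, adjusted p = 6.72e-06; 1.933 and still called without vehicle PM 2). Igf2r, the receptor that carries mannose 6-phosphate tagged hydrolases to lysosomes, was scarce, at 1.88 to 4.432 CPM with vehicle and PBS and 4.354 to 10.89 CPM with vehicle and PM (log2 1.37, adjusted p = 0.00855), where the ranges overlapped. Without vehicle PM 3 Igf2r was not called (log2 1.026). Man2b1, Gm2a, Laptm5 and Cd164 were the 4 that fell with vehicle, by 0.18 to 0.21 on the log2 scale. Of the further proton pump and assembly genes 0 of 7 tested were called in either PM comparison by edgeR or DESeq2. At an unadjusted p under 0.05 there were 0 (vehicle) and 1 (metformin), against 1983 and 3101 of 11906 genes.

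Metformin in PM animals was followed by 5 lower and 2 higher genes of these lists (5.04%, against 6.89% of all genes). Without vehicle PM 2 these became 1 lower (Mfsd12, log2 −0.254) and 0 higher. The other 6 kept their sign without it but were not called, and over all 11 alternatives Mfsd12 was called in each and those 6 in 2 (Ulk2) to 6 (Clcn7 and Fnip2). Over all genes, leaving out vehicle PM 2 took the calls from 334 lower and 486 higher to 178 and 241. Flcn, folliculin, measured 86.03, 83.5 and 86.49 CPM with vehicle and 73.11, 64.71 and 70.03 CPM with metformin (log2 −0.30 ± 0.089, adjusted p = 0.0468). Its partner Fnip2 measured 98.03, 114.4 and 100.6 CPM with vehicle and 74.47, 91.59 and 84.35 CPM with metformin (log2 −0.32 ± 0.09, adjusted p = 0.0336). Neither overlapped between these groups, as was so for 13.1% of all genes in this direction. In PBS animals Flcn measured 68.87 to 91.83 CPM with vehicle and 70.55 to 83.48 CPM with metformin. Fnip2 there measured 91.03 to 106.5 CPM and 80.05 to 99.19 CPM. Both genes act in the Rag pathway that governs TFEB, and a link to the Tfeb values was not tested. The other 3 were Mfsd12, an importer of cysteine into melanosomes and lysosomes (log2 −0.31 ± 0.065), Clcn7, the chloride and proton exchanger (−0.21 ± 0.057), and the acid phosphatase Acp2 (−0.21 ± 0.058). Higher were Map1lc3b, an LC3 protein of autophagosomes (0.21 ± 0.059, adjusted p = 0.0383), and Ulk2, a kinase that starts autophagy (0.25 ± 0.073, adjusted p = 0.0482).

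The relatives of Tfeb were not called. After PM, metformin against vehicle was log2 −0.09 ± 0.068 for Tfe3 (adjusted p = 0.479), 0.15 ± 0.106 for Mitf (adjusted p = 0.478) and 0.30 ± 0.12 for Tfec (adjusted p = 0.16). Their mean levels with metformin and PM were 69, 76.3 and 182 CPM, against 73.6, 68.7 and 148 CPM with vehicle and PM. The difference of PM effects was called for 0 of the 139 genes by edgeR (against 1.44% of all genes) and for 2 with a lower effect by DESeq2. At an unadjusted p under 0.05 there were 3 higher and 10 lower (13 of 139, against 1380 of 11906 genes). In PBS animals metformin was followed by 3 higher and 1 lower (2.88%, against 3.07% of all genes). The lower one was Serpinb1a, a serine protease inhibitor, at log2 −0.39 ± 0.082 (adjusted p = 0.0128).

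**Figure D5:**
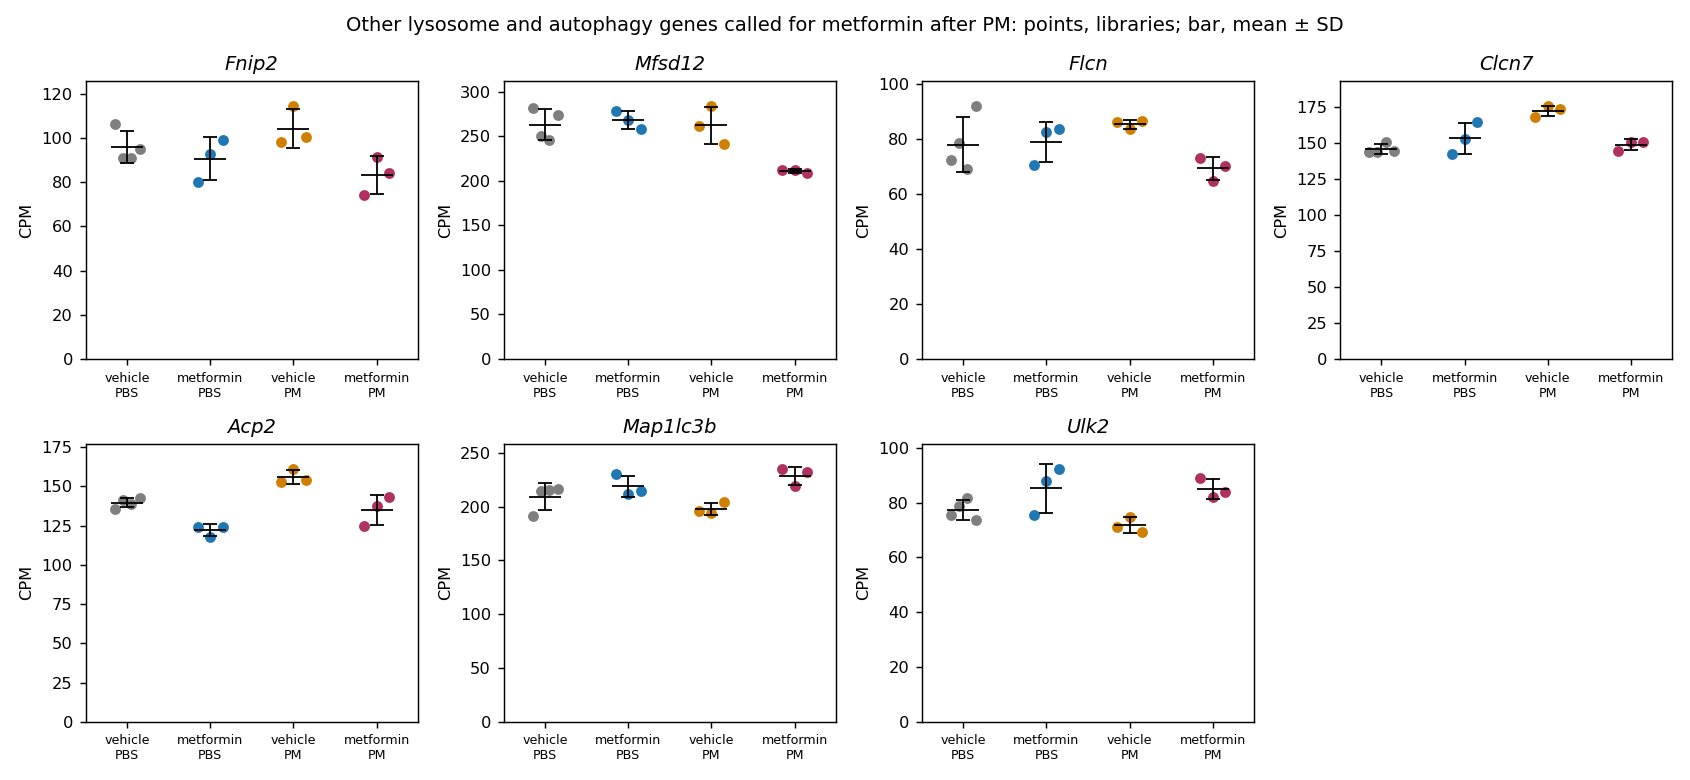
CPM in every library of the 7 further lysosome and autophagy genes called for metformin after PM, with bars for the mean ± SD. Flcn, Fnip2, Mfsd12, Clcn7 and Acp2 are lower in metformin with PM than in vehicle with PM, and Map1lc3b and Ulk2 are higher, with no library overlapping between those 2 groups.

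The count of some members is uncertain because reads of a neighbour could enter it: no strand setting of the counting is given, and strand was not tested. Exons of Ctsb overlapped Fdft1 by 774 bases, where Fdft1 held at most 496 counts and Ctsb 9560 to 15103. Lamp1 overlapped Grtp1, which held at most 7 counts, and Ctsz overlapped Nelfcd by 10 bases. Among members with no call, Ctsa overlapped Pltp, Npc1 overlapped Rmc1 and Atp6v0b overlapped Gm12841. Atp6v0c shared 9.24% of its 75-base windows with its pseudogenes Atp6v0c-ps1 and Atp6v0c-ps2, and Ctsd shared 31.29% with the gene model Gm49369. Ctsl shared 24.63% with several other genes, among them Ak9 and Aldh1a3, and Ctsb 11.76% with Fdft1. Of the further genes, Mfsd12 overlapped 4930404N11Rik, Acp2 overlapped Ddb2 and Map1lc3b overlapped Zcchc14.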

How the data were processed

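Polyadenylated RNA of alveolar macrophages was sequenced as 75 bp single ends. The submitters' processing notes name bcl2fastq (version 2.19), TopHat2 and the mm10 build, HTSeq and edgeR. Raw read counts per gene are what the deposited table holds, 1 column per library, and, per the file headers, gene start and end in bp, used only for position. Which annotation and strand setting HTSeq used is not given in the sources used here.

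Symbols were matched to gene IDs through the name table (42462 of 43430 IDs). In R 4.3.3, edgeR 4.0.16 with filterByExpr, TMM scaling and 1 coefficient per group (9 residual degrees of freedom) tested all 11906 genes over 13 libraries. Benjamini-Hochberg adjustment ran over all of them within each comparison, and an adjusted p under 0.05 is called. SE is the size of the log2 fold change divided by the square root of F. CPM are TMM-scaled with no prior count. RPKM use GENCODE M21 transcript lengths, since the table's length column exceeds the gene's span for 1982 genes. Alternatives were DESeq2 1.42.0, RLE factors, no filter, only the groups compared, a replicate block and leaving out each library. The code was tested on simulated data. Figures used Python 3.11.15, pandas 2.3.3, NumPy 2.4.6 and Matplotlib 3.10.9.

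The members and lists were chosen with earlier results of these data known. Values in every library are given for 13 members chosen by role and for up to 8 called per comparison; of each further list up to 4 called genes with the lowest adjusted p could be named, and Tfe3, Mitf and Tfec are named beside Tfeb for their kinship. Marker genes of cell types are also named to give their levels. Of 228 further genes in the lists, 227 matched 1 ID. Promoter sequences are RefSeq's, on GRCm38.p6.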

Additional observations from a re-analysis of the deposited data

Results flagged for a closer look

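The PM effect on Tfeb differed between the drinking-water arms, with a log2 difference of −0.507 (metformin minus vehicle), tested in the same model over all genes. In the vehicle PBS group, the only group of 4, 39 members were examined for a library far from the other 3, and 3 had one where chance gives about 1 in 20. Atp6v0b was 270.9 CPM in vehicle PBS 3, against 256.6 to 257 CPM in the others. Atp6v0d1 was 259.9 CPM in vehicle PBS 1, against 251.5 to 252.7 CPM. Mcoln1 was 84.32 CPM in vehicle PBS 4, against 86.42 to 86.73 CPM. These 3 gaps lay in 3 different libraries, and none of these genes was called in any comparison.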

How the results depend on the processing

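No value of a called member reversed under any alternative. With PM in vehicle animals the 7 members called higher became 1 to 7 when 1 library was left out, and 5 other alternatives gave 7 or 8. Over all genes the 309 called higher became 209 to 317 with a library left out. For PM with metformin, 855 became 477 to 842. With PM in metformin animals the 8 called higher became 4 to 10 with a library left out, 6 with only the groups compared and 7 or 8 otherwise. The 1 called lower there became 1 to 2, and 2 with no filter on low counts, as Ctsf joined Tfeb (log2 −0.30); it also joined without metformin PBS 4 (−0.39) or metformin PM 4 (−0.40). The 1 called lower for metformin with PBS (Lgmn) became 0 with only the groups compared, and 0 to 1 with a library left out. The 1 called lower for metformin with PM became 1 to 2 with a library left out; Ctsc (log2 −0.20) joined Tfeb without vehicle PM 1. Pairing by replicate number was not detected: the deviations of 16 same-numbered pairs correlated at −0.10 to 0.12, and 1 was above 0.1. For 47 differently numbered pairs this was −0.143 to 0.141, with 2 above 0.1. With 3 or 4 libraries a group this check could miss a weak pairing. With the replicate number as a block the Lgmn call gave 0, 7 members instead of 8 (without Ctsl) were called higher for PM with metformin, and no other count of called members changed. Of the further lysosome and autophagy genes, in an alternative chosen after seeing the data, leaving out vehicle PM 2 turned 12 higher into 6 for PM with vehicle, and 2 higher and 5 lower into 0 and 1 for metformin with PM. With 3 or 4 libraries a group, the members' standard errors of 0.043 to 0.153 limit what can be detected.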
